A study of Nasonia vitripennis with 7 samples.

Results

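The regions described here are DSX peaks that hold no listed DSX site and lie on the shorter scaffolds of the genome of the parasitoid wasp Nasonia vitripennis. They were chosen from the peaks and sites that the authors deposited. Each listed match to the DSX motif was given to the nearest peak summit on its scaffold, and the extent of a scaffold was taken as its largest summit position. A member is a peak that received no match, on a scaffold with an extent under 7 Mb, called short below. This gave 912 members out of 2307 peaks (39.5%), or 63.6% of the 1433 peaks with no listed site. They lay on 65 of the 70 short scaffolds; the other 11 scaffolds of the list, with an extent of 7 Mb or more, are called long.

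The peaks came from DAP-seq, where protein produced in vitro is used to pull its targets out of a library of naked, fragmented genomic DNA. In 4 libraries the protein was DSX, and in 3 libraries it was luciferase, an enzyme used as a control known not to interact with DNA. All 7 libraries were made from DNA of whole bodies of AsymCX wasps, broken to a target size of 150 bases; the names of the DSX libraries carry an F or an M with no meaning given in the labels. The DNA carried no chromatin, so these are contacts in the tube and not in cells. The list holds 1 value for each peak over all libraries together, so no library can be seen apart, the depth is unknown and there is no spread between replicates.

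DSX is the protein of doublesex, the last switch of insect sex determination. It carries a DM domain, a zinc-binding fold that contacts DNA in the minor groove, and its known sites hold a nearly palindromic core around ACAATGT. In insects its male and female forms share this DNA-binding domain and differ at the other end of the protein.

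A peak without a listed site is not a peak without any likeness to the motif. The table lists 12-base matches down to a score of 9.47, with p up to 9.98e-05 and q up to 0.0384, and a weaker match would go unlisted. The sequence under the peaks was not used here, and the sequences shown are those of listed sites beside the members. The best and the weakest listed match on the short scaffolds mark what the members lack, with the 7-base core in capitals.
Best match, at 2632366 to 2632377 of NW_022279588.1 (+): atACATTGTttc
Weakest match, at 1079709 to 1079720 of NW_022279643.1 (+): ttACAATGTact
The best match had a score of 18.45 and the weakest a score of 9.48. Their peaks had strengths of 6.80 and 9.44, where strength is the authors' −log10 of the q or p of the peak against luciferase; the list does not say which of these it is. The sequence of the best match was listed 25 times on short scaffolds.

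The listed sites closest to any member belonged to neighbouring peaks and lay between 241 and 522 bases from the member's summit. These 5 sites are shown because they belong to the peaks with a site that come closest to a member; sequence away from the listed sites was not searched.
Beside the member at 92265 of NW_022279615.1, site at 92500 to 92511 (-): ttACATTGTtta
Beside the member at 1566257 of NW_022279643.1, site at 1566650 to 1566661 (+): ttACATTGTtca
Beside the member at 1339766 of NW_022279616.1, site at 1339314 to 1339325 (-): ttACTTTGTatt
Beside the member at 1703253 of NW_022279625.1, site at 1703704 to 1703715 (+): aaACATTGTttt
Beside the member at 1019156 of NW_022279652.1, site at 1019673 to 1019684 (+): atACATTGTatt
In 4 of these 5 places the peak with the site was the stronger of the pair. The member at 1019156 had a strength of 4.57, and its neighbour 525 bases away a strength of 144. The exception was the member at 1703253, with a strength of 21.7, 414 bases from a peak of strength 8.61 that held the site. The members at 92265, 1566257 and 1339766 had strengths of 2.66, 14.2 and 2.14, beside neighbours at 4.91, 21.6 and 6.34. Coordinates are given as the authors' files have them, on RefSeq scaffolds; the sources used here do not name the build.

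Most members had no listed site within 100 kb on their scaffold. The list holds matches only near summits, at most 358 bases from one. Distances to a listed site are thus distances between peaks and say nothing of unlisted motifs in the sequence between. Of the 912, 10 had a listed site within 1 kb and 56 (6.14%, exact 95% binomial interval 4.67 to 7.90) within 10 kb, while 513 (56.2%) had none within 100 kb on their scaffold. Among these 513, 65 members lay on the 15 short scaffolds where no site was listed at all. The same shares were not counted for the siteless peaks of long scaffolds, so they are not shown to be a trait of the members. Over the 847 members that shared a scaffold with a site, the median distance was 110 kb (95% interval from binomial order statistics 98.4 to 129). For siteless peaks of long scaffolds it was 92.5 kb (79.6 to 106), with an overlapping interval. The median of the members leaves out the 65 on scaffolds with no listed site. Every long scaffold held a site, so no siteless peak was left out there. The overlap therefore does not show that the distances were alike, and whether they differ between the sets was not tested. The density of peaks with a site enters these distances, and its part in them was not tested. Nearness to a site did not go with a clear difference in strength: the 56 members within 10 kb had a median of 6.30 (4.52 to 7.50) and the other 856 a median of 6.12 (5.53 to 6.44). All intervals here cover counting error only, and peaks are not biological replicates. No test is given for the members against other peaks, because the limit of 7 Mb and the listed sites, which define them, were set with results of the same list known.

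Siteless peaks were denser on short scaffolds than on long ones, while peaks with a site were not. Members numbered 8.20 per Mb of scaffold extent (exact Poisson 95% interval 7.68 to 8.76), against 3.39 per Mb (3.10 to 3.69) for the 521 siteless peaks of long scaffolds, a ratio of 2.42. Peaks with a site numbered 3.26 per Mb (2.93 to 3.61) on short scaffolds and 3.33 per Mb (3.05 to 3.63) on long ones. The summed extents were 111 Mb and 154 Mb. As a share, 912 of 1274 peaks on short scaffolds had no site (71.6%, exact 95% interval 69.02 to 74.0), against 521 of 1033 on long scaffolds (50.4%, 47.3 to 53.5). The extents end at the last summit, so they understate scaffold lengths, and most so on scaffolds with few peaks. With the last peak of each scaffold left out, the ratio of siteless densities was 2.32.

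The density of siteless peaks stood at one level over a wide range of short extents and at another on long scaffolds. It was 10.9 per Mb (7.97 to 14.5) on the 19 scaffolds with an extent under 0.5 Mb and 7.69 per Mb (5.84 to 9.94) on the 12 between 0.5 and 1 Mb. On the 16 scaffolds between 1 and 2 Mb it was 8.56 (7.42 to 9.82), on the 12 between 2 and 3 Mb 8.13 (7.14 to 9.23), and on the 9 between 3 and 5 Mb 7.43 (6.53 to 8.41). The 2 scaffolds between 5 and 7 Mb had 9.23 per Mb (7.60 to 11.1). On long scaffolds it was 3.71 per Mb (3.11 to 4.39) between 7 and 13 Mb and 3.29 per Mb (2.97 to 3.63) above. The neighbouring classes up to 7 Mb had overlapping intervals, and the intervals of the classes on either side of the limit did not overlap. A class edge was placed at the limit, which was itself chosen with results of this list known. These classes therefore cannot show at which extent the density changes.

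Right at the limit, the 2 longest of the short scaffolds were NW_022279588.1, with an extent of 6.49 Mb, 67 members and 10.3 siteless peaks per Mb, and NW_022279638.1, with 5.65 Mb, 45 members and 7.97 per Mb. The 2 shortest of the long scaffolds were NW_022279603.1, with 7.18 Mb, 28 siteless peaks and 3.90 per Mb, and NW_022279647.1, with 8.55 Mb, 35 siteless peaks and 4.09 per Mb. The last was also the densest of the 11 long scaffolds. The extents decided which peaks are members, and these values are given as a description.

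**Figure D1:**
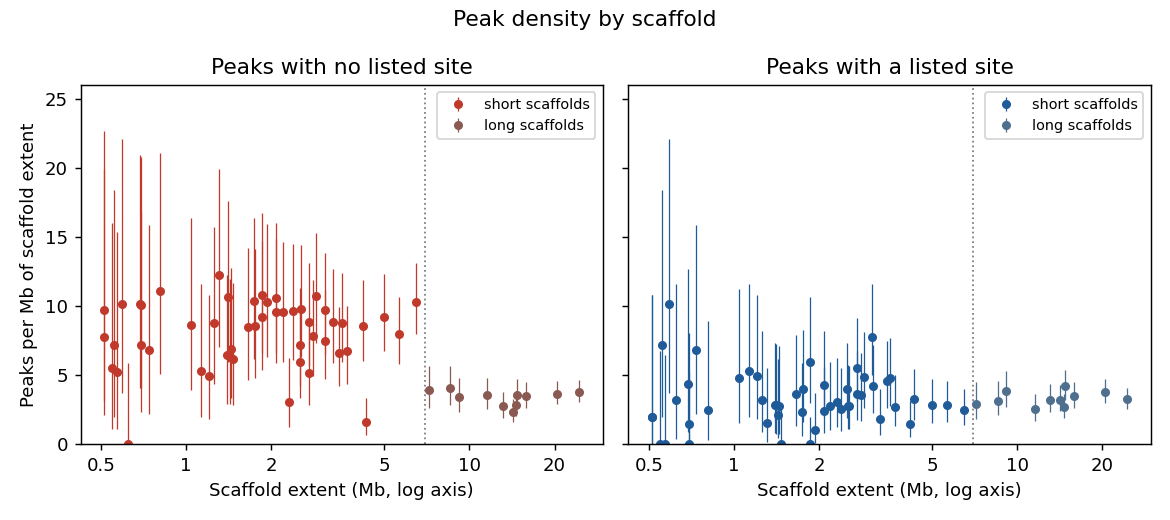
Peaks per Mb of scaffold extent (vertical axis) against the extent of the scaffold in Mb (log axis), for peaks with no listed site (left) and with one (right), on the scaffolds with an extent of at least 0.5 Mb. Each point is 1 scaffold, bars are exact Poisson 95% intervals and the dotted line marks 7 Mb, the limit that defines the members. Most short scaffolds stand above the long ones on the left, where the long ones lie between 2.32 and 4.09. The right panel shows no such difference.

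Scaffold by scaffold the picture was much the same, with a clear exception. Of the 27 short scaffolds with at least 20 peaks, which held 684 members, 26 had more siteless peaks per Mb than the densest long scaffold. Their median was 8.81 per Mb, with a range from 1.63 to 10.8. The exception was NW_022279623.1, with an extent of 4.30 Mb: only 7 of its 21 peaks were members (1.63 per Mb, 0.654 to 3.35), while its 14 peaks with a site gave 3.25 per Mb, close to the median of 3.24 over long scaffolds. A scaffold of small extent reaches 20 peaks only where it is dense. The other 43 short scaffolds, with fewer than 20 peaks, held 228 members and had a pooled density of 7.86 per Mb. Low values occurred among them too: NW_022279596.1, with an extent of 2.31 Mb, held 7 members among 14 peaks (3.03 per Mb), and NW_022279632.1 held none among 2 peaks.

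The members were spread over many scaffolds. The 5 scaffolds with the most members were NW_022279588.1 with 67, NW_022279591.1 with 46, NW_022279638.1 with 45, NW_022279608.1 with 36 and NW_022279639.1 or NW_022279617.1 with 31 each. The first 4 with NW_022279639.1 held 225 members, 24.7% of the total. Scaffolds with an extent under 1 Mb numbered 31 and held 104 members. On 11 scaffolds with at least 2 peaks every peak was a member, and 4 more scaffolds held a member as their only peak.

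Members were stronger than the siteless peaks of long scaffolds and weaker than the peaks with a site beside them. Their strength had a median of 6.12 (95% interval 5.59 to 6.44), with quartiles at 3.46 and 10.9 and extremes at 2.03 and 77.7. The siteless peaks of long scaffolds had a median of 3.50 (3.25 to 3.66), with quartiles at 2.59 and 4.81 and extremes at 2.04 and 47.1. Peaks with a site had a median of 8.19 (7.19 to 9.03) on short scaffolds and 7.38 (6.79 to 7.74) on long scaffolds. The interval of the members thus overlapped neither that of the siteless peaks of long scaffolds nor that of the peaks with a site around them, while the intervals of the 2 sets with a site overlapped each other. Strength was not used to choose the members, but the motif behind the listed sites was found in these same peaks.

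By scaffold, the median strength of members ran from 3.08 to 8.65 over the 27 short scaffolds with at least 20 peaks. It ran from 3.00 to 3.86 for siteless peaks over the 11 long scaffolds, and 24 of the 27 lay above the highest of these. The lowest was again NW_022279623.1, although its strongest member reached 24.998. Over the classes of extent up to 7 Mb the medians lay between 5.70 and 7.23, in no order of extent, and they were 3.25 and 3.62 in the 2 classes of long scaffolds. Strengths were often repeated exactly: 442 members shared their value with at least 1 other member, and 26 members had a strength of 3.86, as had 74 peaks of the whole list. Repeats were not counted in the other sets, so they are not shown to be particular to the members.

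**Figure D2:**
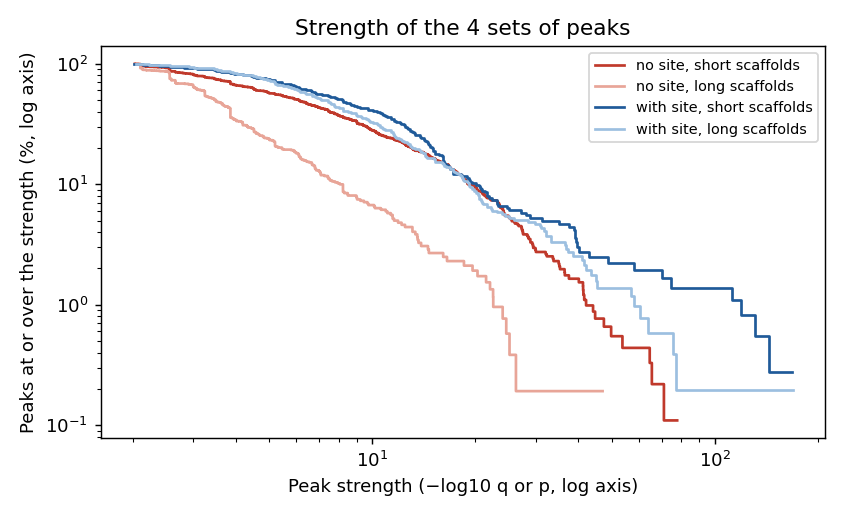
Share of peaks at or over a given strength (percent, log axis) against strength (−log10 of q or p, log axis), 1 line for each of the 4 sets of peaks. The line of the members lies well above that of the siteless peaks of long scaffolds, with 28.1% against 6.72% over a strength of 10; peaks with a site had 41.4% over 10 on short scaffolds and 33.01% on long ones.

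The gap between short and long scaffolds widened with strength. Among the weakest peaks, with a strength from 2 to 3, members numbered 1.48 per Mb (1.27 to 1.73) and siteless peaks of long scaffolds 1.14 (0.975 to 1.32), a ratio of 1.30. From 3 to 5 the ratio was 1.40, from 5 to 10 it was 4.14, from 10 to 20 it was 9.41 and over 20 it was 11.9. Over 20 there were 86 members (0.774 per Mb, 0.619 to 0.956), against 10 siteless peaks of long scaffolds (0.0650 per Mb, 0.0312 to 0.120). For peaks with a site the ratio of short over long scaffolds stayed between 0.793 and 1.26 in the same 5 bands.

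Seen as shares, strong peaks of long scaffolds mostly held a site and those of short scaffolds mostly did not. Of the peaks over 20, 86 of 123 on short scaffolds had no site (69.9%, exact 95% interval 61.0 to 77.9), against 10 of 55 on long scaffolds (18.2%, 9.08 to 30.9). Between 10 and 20 the shares were 60.1% (54.1 to 65.8) and 16.8% (11.2 to 23.8). Between 2 and 3 they were 86.4% (80.7 to 90.9) and 85.8% (80.2 to 90.3), with intervals that overlapped almost wholly. On short scaffolds the share with no site was 60.1% or more in every band.

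**Figure D3:**
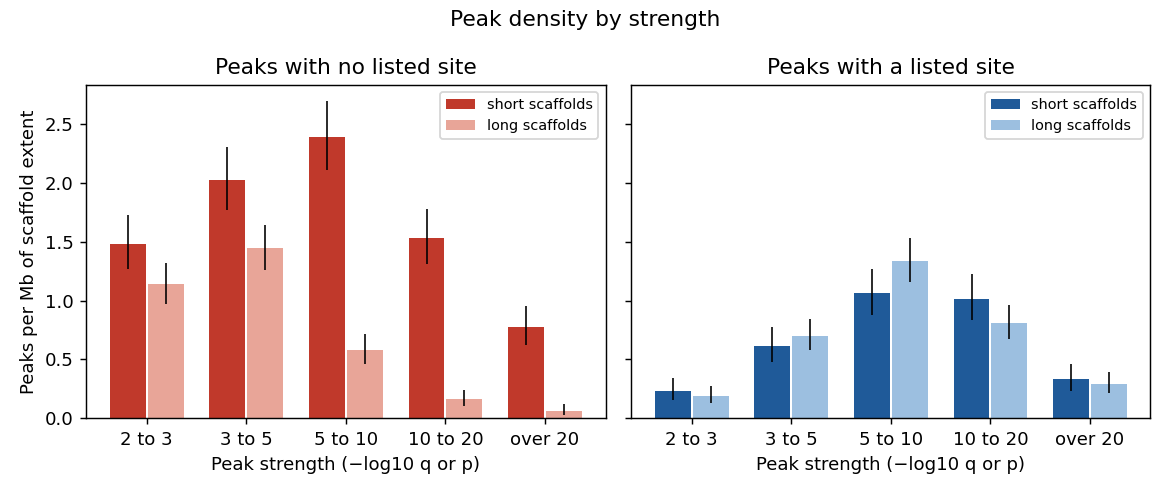
Peaks per Mb of scaffold extent (bars from 0) in 5 bands of strength (−log10 of q or p), for peaks with no listed site (left) and with one (right), each on short and long scaffolds; error bars are exact Poisson 95% intervals. Members outnumber the siteless peaks of long scaffolds most in the bands from 5 upward (2.39 against 0.579 per Mb from 5 to 10), while the bars on the right are of like height in each pair.

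Strong members were found on many scaffolds. Members over 10 numbered 256, of 610 such peaks in the whole list, and lay on 56 short scaffolds. Members made up 39.5% of the peaks of any strength. The 86 members over 20 lay on 42 scaffolds, with at most 7 on 1 of them, NW_022279588.1. Their nearest other summit was a median of 31.7 kb away, 13 of them had another summit within 5 kb, and 3 had a listed site within 10 kb. Over all members the median was 28.4 kb, 15.02% had another summit within 5 kb and 6.14% had a site within 10 kb.

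The strongest members stood at different parts of their scaffolds. The first, at 304305 of NW_022279587.1 (strength 77.7), was 1 of 3 peaks on its scaffold, all siteless, and lay 207 kb from the next summit. The member at 1245377 of NW_022279629.1 (71.1) was 123 kb from the nearest summit and 883 kb from the nearest listed site. The member at 1322591 of NW_022279625.1 (65.5) was the closest of the 10 to a site, at 4.97 kb. The member at 693647 of NW_022279631.1 (64.6) was the last summit of its scaffold and had a neighbour 2.68 kb before it. After these came positions 584256 and 1335743 of NW_022279654.1 (53.8 and 47.5), both over 45 kb from a site and over 25 kb from another summit. The member at 86124 of NW_022279655.1 (49.9) was the first summit of its scaffold, with another member 1.71 kb behind it. The 10 were completed by position 591075 of NW_022279629.1 (44.8), position 1052618 of NW_022279589.1 (44.2) and position 1118731 of NW_022279616.1 (42.1), with a listed site no nearer than 221 kb.

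Along the scaffolds the members were spread nearly evenly. Because the last summit of a scaffold sets its extent, 48 members stand at 100% by construction, and positions were read over the other 864. Each 10% of the extent then held between 9.03% and 11.5% of them, and every exact 95% interval took in 10%. The first 10% held 78 members (9.03%, 7.20 to 11.1) and the last 10% held 94 (10.9%, 8.88 to 13.1). Together they held 19.9% (17.3 to 22.7), against 21.2% (17.7 to 24.95) for siteless peaks of long scaffolds and 23.5% (19.1 to 28.4) for peaks with a site on short scaffolds. With the last summits counted, the outer share of the members was 24.1%. The median strength in these 10 parts of the extent ran from 4.75 to 7.59 with no trend from one end to the other.

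Distance from the nearer end in bases gave the same picture. Members numbered 6.28 per Mb (4.99 to 7.81) within 0.1 Mb of an end of the extent, and 8.74 (7.38 to 10.3) from 0.1 to 0.25 Mb. Further in they numbered 7.32 (6.21 to 8.57) from 0.25 to 0.5 Mb, 7.72 (6.77 to 8.76) from 0.5 to 1 Mb, 8.28 (7.17 to 9.52) from 1 to 2 Mb and 8.17 (5.98 to 10.9) beyond 2 Mb. All these intervals overlapped, and the first class is lowered by leaving out the last summits. The median strength stayed between 5.55 and 6.43 in all 6 classes. The members nearest to the start of a scaffold, setting aside a scaffold with a single peak at 1438, were at 2582 and 7459 of NW_022279658.1 (strengths 29.5 and 11.9), 6220 of NW_022279657.1 (2.86) and 10316 of NW_022279602.1 (7.16).

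**Figure D4:**
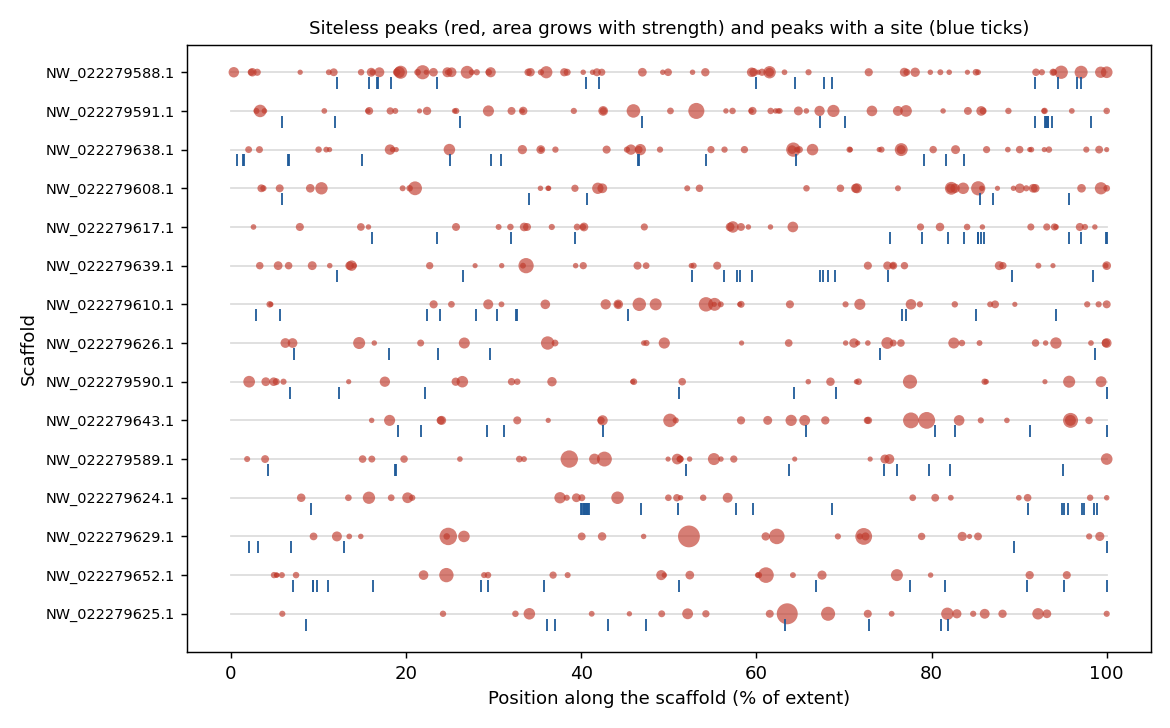
Position of each peak along the 15 short scaffolds with the most members, as a percent of the extent, with 1 row per scaffold. Red points are members, with an area that grows with strength, and blue ticks are peaks with a listed site; members are found in most stretches of most rows, with gaps in some of them, such as the start of NW_022279643.1, whose first member is at 16.1%.

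At the scale of 1 Mb the number of members varied, but few windows had none. Over the 81 whole windows of 1 Mb on short scaffolds, the number of members had a median of 8, from 0 to 18, and 2 windows had 0. Over the 149 windows of long scaffolds the siteless peaks had a median of 3, from 0 to 12, and 10 windows had 0. A count of 7 or more, a limit chosen after the values were seen, was met by 50 of the short-scaffold windows (61.7%) and 10 of the long-scaffold windows (6.71%). The 35 siteless peaks over 10 on long scaffolds were found on 8 of the 11, with 12 on NW_022279642.1, 7 on NW_022279606.1 and 16 on the other 6. Their median positions were 22.9 Mb of an extent of 24.4 Mb on NW_022279642.1 and 20.01 Mb of 20.4 Mb on NW_022279606.1, although the first of them stood at 10.2 Mb and 5.94 Mb. Several other scaffolds had them further inside, with a median position of 9.94 Mb of 14.8 Mb for the 5 on NW_022279598.1, 4.97 Mb of 9.16 Mb for the 3 on NW_022279649.1 and 3.32 Mb of 15.9 Mb for the 3 on NW_022279592.1, while the 3 on NW_022279647.1 had a median of 1.05 Mb of 8.55 Mb. On long scaffolds the most siteless peaks in a whole window were 12, found from 1 to 2 Mb of NW_022279647.1 and from 6 to 7 Mb of NW_022279649.1. The incomplete window beyond 20 Mb of NW_022279606.1, which is not among the 149, also held 12.

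Members lay closer to other peaks than siteless peaks of long scaffolds did. The nearest other summit, of any kind, was a median of 28.4 kb away (95% interval 25.9 to 30.5; quartiles 10.4 and 58.6 kb) for the 908 members that were not alone on their scaffold, against 42.3 kb (36.6 to 48.6) for siteless peaks of long scaffolds. For peaks with a site the medians were 19.7 kb (17.2 to 24.9) on short scaffolds and 41.8 kb (34.9 to 50.7) on long ones. Another summit lay within 5 kb of 137 members (15.02%, 12.8 to 17.5), of 35 siteless peaks of long scaffolds (6.72%, 4.72 to 9.22) and of 66 peaks with a site on short scaffolds (18.2%, 14.4 to 22.6). Within 1 kb the counts were 38 members (4.17%) and 8 siteless peaks of long scaffolds (1.54%). Density enters these distances, and its part in them was not tested.

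**Figure D5:**
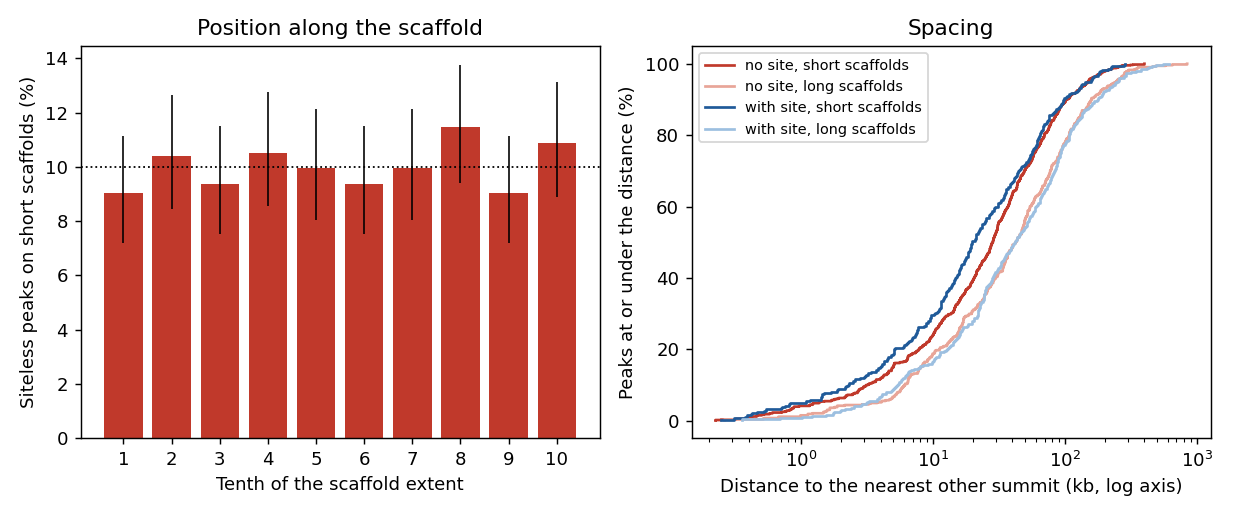
Left, the share of members (percent, with exact 95% intervals) in each 10% of the scaffold extent, without the last peak of each scaffold; the dotted line marks 10%, and all bars lie between 9.03% and 11.5%. Right, the share of peaks (percent) whose nearest other summit lies at or under a given distance (kb, log axis), for the 4 sets; over most of the range both sets of short scaffolds lie left of both sets of long scaffolds, with medians of 28.4 and 19.7 kb against 42.3 and 41.8 kb.

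Neighbouring members were separated by gaps of all sizes. The 847 gaps from one member to the next on its scaffold had a median of 75.6 kb and a mean of 115 ± 132 kb (SD), so the SD was 1.15 times the mean; this ratio was 1.18 for siteless peaks of long scaffolds, whose mean gap was 291 kb. For points dropped independently at a constant rate the SD equals the mean. These gaps pool scaffolds of unlike density, so the rate was not constant over them and the ratio cannot show grouping within scaffolds. Of the gaps, 14 were under 1 kb, 42 between 1 and 5 kb, and 88 between 5 and 20 kb, while 16 exceeded 500 kb. The widest, 1822 kb, was on NW_022279623.1, the scaffold with few members. Among the 144 gaps under 20 kb, 1 value, 2682 bases, occurred to the base on 2 different scaffolds, and 2 neighbouring gaps on NW_022279654.1 measured 1370 and 1367 bases. Summits can shift by some bases, and whether any spacing is preferred was not tested.

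Close groups of members were small. Chained at less than 5 kb, 110 members fell into 54 groups, of which 52 were pairs and 2 held 3 members each. The triplets were between 266750 and 269487 of NW_022279654.1, with strengths up to 4.04, and between 86124 and 91108 of NW_022279655.1, with strengths from 7.45 to 49.9. Members in such groups had a median strength of 5.54 (4.58 to 7.07) and the 802 others one of 6.12 (5.64 to 6.55), with overlapping intervals.

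The closest pairs differed in how alike their strengths were. The closest of all, at 282056 and 282280 of NW_022279602.1, were 224 bases apart, with strengths of 3.46 and 2.59. The next had summits at 4323030 and 4323351 of NW_022279638.1 (strengths 10.4 and 23.7) and at 3990391 and 3990781 of NW_022279588.1 (10.1 and 21.5). Then came a pair at 173643 and 174049 of NW_022279600.1 (5.17 and 4.86) and a pair at 492011 and 492472 of NW_022279635.1 (15.3 and 3.13). Over the 14 pairs under 1 kb the stronger summit had 1.56 times the strength of the weaker in the median, from 1.00 to 4.88 times. At the other extreme, the most isolated members were at 1063398 and 1463891 of NW_022279613.1, 400 kb from each other, followed by 928849 of NW_022279614.1 (329 kb), 928458 of NW_022279630.1 (312 kb) and 6220 of NW_022279657.1 (272 kb). Their strengths ran from 2.86 to 24.4.

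Members mostly had siteless neighbours, on scaffolds where most peaks were siteless. The nearest peak was itself siteless for 683 of 908 members (75.2%, 72.3 to 78.0), and 1292 of their 1726 neighbours on either side were siteless (74.9%, 72.7 to 76.9). Siteless peaks made up 71.6% of the peaks on short scaffolds, and 63.6% (59.9 to 67.3) of the neighbours of peaks with a site. Among the 137 members with a summit within 5 kb, the nearest was siteless in 80.3% (72.6 to 86.6). These shares pool scaffolds that differ in their own share of siteless peaks, and the part of this in the shares was not tested. A pair of adjacent members can also be counted from both sides. The intervals for neighbours treat every entry as independent, so they are too narrow to set these shares apart from 71.6%.

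Uninterrupted runs of members reached over a megabase in places. The members formed 266 runs with no peak with a site between them, of which 86 were single members and 66 held at least 5, with 514 members in all (56.4%). With 71.6% of the peaks on short scaffolds siteless, runs would form in any order of the peaks. Whether these runs differ from what that share alone gives was not tested. The longest run held 19 members over 1.71 Mb of NW_022279629.1, from 321857 to 2031236, with strengths from 2.07 to 71.1 and a median of 7.56. All 17 peaks of NW_022279645.1 were members, over 1.79 Mb, with a median strength of 5.001. A run of 15 covered 1.01 Mb of NW_022279588.1 and a run of 14 covered 1.82 Mb of NW_022279608.1; this last one had a median strength of 11.3. Runs of 10 or more numbered 13.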

How the data were processed

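Per the labels, 4 libraries enriched with DSX and 3 with luciferase were grouped by the protein named. The submitters' processing notes name cutadapt, Bowtie2 2.3.5.1, MACS2 2.2.5 and bedtools 2.28.0, without settings. The deposited peak list gives single-base summits, each with the authors' −log10 value (of q or of p) for DSX over luciferase. The deposited table of sites holds the score, p-value and q-value of each match, made by the authors with FIMO 5.1.0 and a motif from the same peaks, per the file's footer. Neither file keeps libraries apart, so no spread between replicates and no depth could be had, and intervals cover counting error only. The placing of reads from repeats and the genome build are not stated in these sources.

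The centre of a match was 5 bases after its start on the + strand and 5 before its stop on the - strand. Shares have exact (Clopper-Pearson) 95% intervals, densities exact Poisson 95% intervals, and medians 95% intervals from binomial order statistics. No p-value was computed, since peaks are not replicates. The regions named are the 10 strongest members, the 5 closest pairs, the 5 most isolated members, the longest run, the 5 scaffolds with the most members, the 5 members nearest to a listed site, the 5 nearest to a scaffold start and the 2 scaffolds on each side of the limit; other regions were named after their values were seen. The members, lists and limits were chosen with earlier results of these data known. A RefSeq gene table of assembly Nvit_psr_1.1 uses other coordinates and was not used. Assignment was checked on simulated peaks spaced widely enough that each site lay nearest to its own summit. That check does not cover summits closer together, where assignment is less certain. The coverage of the intervals was computed on simulated data, with no rule for passing. Software was python 3.11.15 with scipy 1.17.1, pandas 2.3.3, numpy 2.4.6 and, for plots, matplotlib 3.10.9.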

Additional observations from a re-analysis of the deposited data

How the results depend on the processing

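Under 10 alternative settings, 78 recomputed values stayed within the interval of the value reported or within 1.5 times its count, and 23 did not. Some of the 78 could not move. Dropping scaffolds with fewer than 20 peaks, or the scaffold with the most members, left the long scaffolds untouched. Their unchanged values are among the 78. With a limit of 5 Mb the siteless peaks of long scaffolds had a median strength of 3.70 and a density of 3.81 per Mb, and with 10 Mb those of short scaffolds had 7.39 per Mb. With only sites at or above the median score, the share of short-scaffold peaks without a site was 82.1%, the siteless densities were 9.41 per Mb on short and 4.42 on long scaffolds, the median strength of siteless peaks of long scaffolds was 3.86, siteless neighbours made up 84.1%, and the median distance to a site was 195 kb. In the stronger part of the list, 479 members remained of the short-scaffold peaks (66.3%), with median strengths of 10.5 for members, 8.22 for siteless peaks of long scaffolds and 11.6 for peaks with a site on short scaffolds. Siteless densities there were 4.31 and 0.657 per Mb, the nearest summit was 53.4 kb away, 8.56% of members had one within 5 kb, and 71.3% of neighbours were siteless. With summits under 1 kb apart merged, 11.1% of members had another within 5 kb. The outer share of 24.1% was 20.8% on scaffolds with at least 20 peaks, 20.6% with the median gap added to the extent and 19.9% without the last peaks. In each of the 9 settings that bear on them, members were denser and stronger than siteless peaks of long scaffolds (density ratio 2.12 to 6.56, median strength higher by 2.11 to 2.64), and their median was below that of the short-scaffold peaks with a site. These settings reuse the same peaks, and apart from the limits of 5 and 10 Mb they keep the split at 7 Mb. That split was chosen with results of this list known, so the settings are no independent support. The last-peak setting for density and strength was chosen after the data were seen. No paired analysis was possible because both files pool the libraries, and leaving out libraries could not be done for the same reason.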
